A study of Mus musculus with 6 samples.

Results

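Aqp4, Mlc1, Slc1a2, Slc1a3, Glul, Gja1, Aldoc, Aldh1l1 and S100b, 9 genes that resting astrocytes use for their housekeeping work, were followed over the brain areas of 6 mouse sections. They were chosen by name, as mouse gene rows of the count tables, by a rule that uses no measured value, and they are 9 of 32288 genes kept. All 9 had counts in all 6 sections. By the medians of the area sums, Glul and S100b were highest in fiber tracts and the other genes in the spots named meninges. For 8 of the 9 the lowest median was that of cortex, hippocampus or hypothalamus, although clusters within the hippocampus differed. Across conditions most of them moved little, and among the exceptions were S100b in an area rich in Six3, lower in both 5xFAD sections than in the other 4, and Aqp4 in the thalamus, at 106 and 104 CPM (counts per 1000000 counts) in the E4 5xFAD and E3 5xFAD sections, against 57.7 to 66.9 CPM in the 4 aged and young sections.

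Astrocytes clear glutamate and potassium from the space around synapses, pass metabolites to neurons and, through end feet that wrap blood vessels and line the brain surface, control the movement of water. In injury and around amyloid plaques they turn reactive, with more of the filament protein Gfap, and a long-standing question is whether the genes of their ordinary duties fall as this happens. Aqp4 is the water channel of the end feet and Mlc1 a membrane protein of the same contacts. Slc1a2 (GLT-1) and Slc1a3 (GLAST) carry glutamate into the cell, and Glul (glutamine synthetase) turns that glutamate into glutamine. Gja1 (connexin 43) forms the gap junctions that join astrocytes, Aldoc (aldolase C) works in glycolysis, Aldh1l1 is an enzyme of folate metabolism and S100b binds calcium. Glul and S100b are also made by oligodendrocytes.

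The promoters of 3 members are shown because these genes carry the contrasts described further on. Slc1a2 and Slc1a3 do the same job but, outside the meninges, had their highest area medians in different areas. By cluster, both were highest outside the meninges in the same hippocampal cluster. Mlc1 was highest in the E4 5xFAD section in nearly every area. Each window holds 250 bases before and 50 bases after a transcription start of RefSeq on GRCm38.p6, 300 bases in all, read 5′ to 3′ on the gene's own strand, at chr2:102706188-102706487 on the plus strand for Slc1a2, chr15:8710758-8711057 on the minus strand for Slc1a3 and chr15:88978504-88978803 on the minus strand for Mlc1. The windows of Slc1a2 and Mlc1 lie inside the genes' annotated spans, which begin, on the gene's own strand, at 102658239 on chromosome 2 for Slc1a2 and at 88982693 on chromosome 15 for Mlc1. Capitals mark the half-site of the NFI factors (TTGGC on either strand, so GCCAA in Slc1a2) and, in Slc1a3, the STAT motif (TTCNNNGAA).
Slc1a2: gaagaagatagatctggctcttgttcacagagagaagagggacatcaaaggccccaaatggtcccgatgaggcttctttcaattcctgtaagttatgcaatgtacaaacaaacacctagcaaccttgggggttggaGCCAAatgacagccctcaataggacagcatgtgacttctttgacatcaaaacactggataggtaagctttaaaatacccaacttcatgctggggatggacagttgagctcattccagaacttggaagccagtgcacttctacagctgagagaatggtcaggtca
Slc1a3: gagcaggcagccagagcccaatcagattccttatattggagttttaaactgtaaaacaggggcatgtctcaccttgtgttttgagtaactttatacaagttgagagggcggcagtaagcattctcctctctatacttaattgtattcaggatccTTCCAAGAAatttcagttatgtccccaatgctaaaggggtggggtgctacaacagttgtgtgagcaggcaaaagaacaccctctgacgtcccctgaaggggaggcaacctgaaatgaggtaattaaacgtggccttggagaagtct
Mlc1: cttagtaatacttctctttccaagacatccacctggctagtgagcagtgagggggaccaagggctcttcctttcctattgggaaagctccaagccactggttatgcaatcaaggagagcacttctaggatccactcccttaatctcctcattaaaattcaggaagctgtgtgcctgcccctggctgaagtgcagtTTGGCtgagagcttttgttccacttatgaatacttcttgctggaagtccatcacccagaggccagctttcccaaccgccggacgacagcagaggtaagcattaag
A promoter window was found for 8 of the 9 genes. The NFI half-site was present in 5 of these 8 genes (Aldoc, Glul, Mlc1, S100b and Slc1a2), against 46.7% of 32851 mouse promoter windows of the same length. The STAT motif was present in 2 of 8 (Aldoc and Slc1a3), against 8.3% of all windows, and the AP-1 motif (TGANTCA) in 1 of 8 (Gja1), against 7.81%. All 3 motifs were searched on both strands, and matches could overlap. A match describes letters only and is no evidence that a factor binds.

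Spatial transcriptomics was run with Visium, in which barcoded spots under a tissue section capture the RNA above them and each captured molecule is counted once by its unique molecular identifier (UMI). The 6 groups were 1 coronal hemibrain section each: E4 5xFAD and E3 5xFAD at 12 months of age, E4 aged and E3 aged at 24 months, and E4 young and E3 young at 3 months. All 6 mice were females in which human APOE, as the E4 or the E3 allele, replaces mouse Apoe. The 5xFAD mice also carry human transgenes with familial Alzheimer mutations, driven by Thy1 elements in neurons, and come from a cross, so that their strain background may differ from that of the other 4 mice. With 1 section a group, differences between mice of a group were not measured, the 5xFAD contrast mixes the transgenes with 9 months of age, and any difference in how the 5xFAD pair was processed cannot be told apart from 5xFAD itself.

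The sections held 14524 spots with a barcode inside the tissue masks, 1688 to 2773 a section, and 20343701 to 37266232 UMIs a section. Another 2455 of the 16979 mask spots lacked a barcode, so that 99.9% of the mask was covered in E3 5xFAD but 75.9% to 86.0% in the other sections. A spot holds several cells and parts of cells, so fewer astrocytes and less RNA per astrocyte cannot be told apart. Although a label calls the material non-neuronal cells, 6 neuronal markers summed to 4387 to 5608 CPM in every section. Spots were clustered without the 9 genes and other astrocyte genes, and the clusters were named as areas by fixed markers. None of the 9 genes ranked among the 3000 most variable genes. Of the areas, 8 had at least 20 spots in every section. The fiber tract spots were shallow, with a median of 316 to 2344 UMIs a spot. The spots named meninges, 24 to 101 a section, were led by the pituitary hormone genes Prl and Gh and then by genes of the brain coverings. An area of 105 to 266 spots a section was named the Six3-rich area after its clusters were seen, from its leading gene, since Six3 and Pvalb led it ahead of the myelin genes.

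Levels in CPM are the UMIs of a gene in an area of a section per 1000000 UMIs there, and compare the same gene between areas, not 1 gene with another. Aqp4 spanned the widest range. Its median over the 6 sections was 209 CPM in the meninges, 156 CPM in fiber tracts, 103 CPM in the Six3-rich area, 64.1 CPM in thalamus, 53.6 CPM in hippocampus, 45.3 CPM in hypothalamus, 40.8 CPM in cerebral nuclei and 39.3 CPM in cortex, a 5.32-fold range of medians. The thalamus lay above the hippocampus, and the hippocampus above the hypothalamus, in 6 of 6 sections. The last 3 areas did not separate, since hypothalamus lay above cerebral nuclei in 4 of 6 sections and cerebral nuclei above cortex in 3 of 6.

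**Figure D1:**
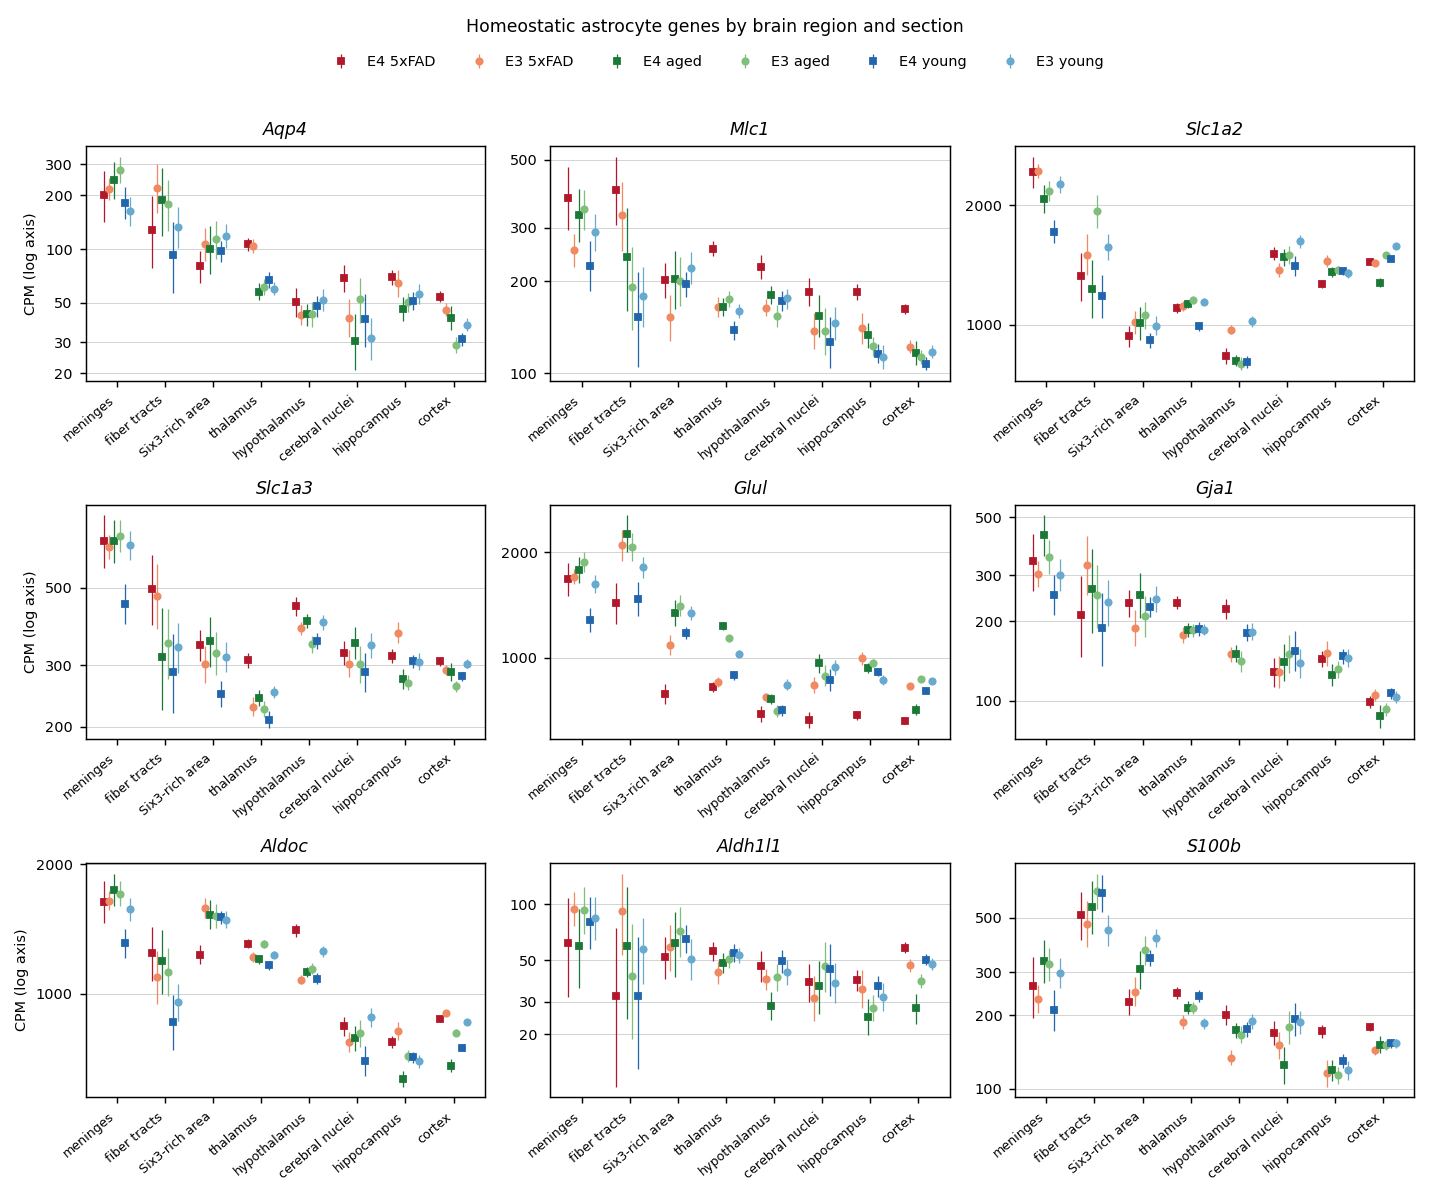
Level of each of the 9 genes (CPM, log axis) in 8 brain areas, 1 point a section, with 95% Poisson intervals for counting error. Aqp4, Mlc1, Gja1 and Aldh1l1 were highest in the meninges by their medians, while S100b and Glul were highest in fiber tracts.

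Over all 9 genes and 63 pairs of neighbouring areas, 14 pairs held the same order in all 6 sections. An exact two-sided sign-flip permutation test over 6 sections cannot go below p = 0.03125, which came to an adjusted p of 0.141 over the 63 pairs, so 0 pairs passed and neighbours in each order are described by the sections in which they held.

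Mlc1 followed a similar order, with medians of 310 CPM in the meninges and 117 CPM in cortex, its lowest area in 5 of 6 sections. Gja1 was lowest in cortex in 6 of 6 sections, at 98.8 and 105 CPM in E4 5xFAD and E3 5xFAD, 86.9 and 92.8 CPM in E4 aged and E3 aged, and 107 and 103 CPM in E4 young and E3 young. Its thalamic values, 236, 178, 186, 185, 187 and 186 CPM in the same order of sections, all lay above every cortical value.

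The glutamate genes differed from one another. Slc1a2 outside the meninges was highest in cerebral nuclei and cortex, with medians of 1489 CPM in cerebral nuclei and 1452 CPM in cortex, and lowest in the hypothalamus, at 822 CPM. Slc1a3 outside the meninges was highest in that same hypothalamus, at 390 CPM, and lowest in the thalamus, at 235 CPM. In the hypothalamus Slc1a2 measured 835 and 970 CPM in E4 5xFAD and E3 5xFAD, 810 and 796 CPM in E4 aged and E3 aged, and 804 and 1019 CPM in E4 young and E3 young. Slc1a3 there measured 441, 382, 400, 344, 351 and 397 CPM in the same sections, above its thalamic value in every one of them. By the medians of these 8 areas, Slc1a2 was at its lowest where Slc1a3, outside the meninges, was at its highest. For Slc1a3, though, hypothalamus lay above fiber tracts in only 3 of 6 sections. The largest hippocampal cluster had the highest cluster median of both genes outside the meninges, 1983 CPM for Slc1a2 and 452 CPM for Slc1a3. In smaller areas both were low, with medians of 629 and 213 CPM in habenula and 624 and 158 CPM in the ventricular system. Glul was highest in fiber tracts, at a median of 1939 CPM, and lowest in hypothalamus, at 734 CPM.

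S100b was highest in fiber tracts in 6 of 6 sections, at 514, 474, 557, 644, 633 and 445 CPM, in the order E4 5xFAD, E3 5xFAD, E4 aged, E3 aged, E4 young and E3 young. In hippocampus, its lowest area by the median, it stood at 172, 116, 119, 113, 130 and 119 CPM. The groups of values did not overlap, and the medians were 4.50-fold apart. Summed markers of oligodendrocytes (10 genes) ran from 25446 to 40581 CPM in fiber tracts and from 2592 to 5213 CPM in hippocampus, and their part in the S100b and Glul levels was not tested. Aldoc had medians of 1511 CPM in the Six3-rich area and 1226 CPM in thalamus, against 836 CPM in cortex and 714 CPM in hippocampus. Aldh1l1 was the sparsest of the 9, with medians between 33.4 CPM in hippocampus and 82.5 CPM in the meninges and as few as 5 UMIs in the fiber tracts of a section. The hippocampal sums weigh spots by their UMIs and mix clusters that differed. The largest cluster, of 1121 spots, had CPM medians of 1983 for Slc1a2, 1489 for Glul, 1045 for Aldoc and 178 for S100b. The other hippocampal clusters held more UMIs a spot and lay lower for these genes, down to 646, 411, 399 and 60.8 CPM. The part of this mix in the hippocampal levels was not tested.

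Each area was also set against the mean of the other 7 areas of the same sections, in a fit over 13355 genes that asks for a change beyond 1.5-fold (edgeR's glmTreat). The areas were themselves drawn from expression in these spots, so these calls describe the areas as drawn. In the meninges 8 of 9 genes were called higher, against 5.56% of all genes. The log2 differences there were 1.82 ± 0.13 (SE) for Aqp4 (adjusted p = 4.23e-13), 1.13 for Slc1a3, 1.07 for Gja1, 1.01 for Aldh1l1, 0.96 for Mlc1, 0.94 for Slc1a2, 0.84 for Glul and 0.77 for Aldoc. S100b, at 0.47, was not called. With library sizes alone in place of the composition scaling, Glul and Aldoc lost the call (adjusted p = 0.0585 and 0.321), and without E3 aged Aldoc did (adjusted p = 0.0508).

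In fiber tracts 3 of 9 genes were called higher, against 4.97% of all genes: S100b at 1.43 ± 0.11, Aqp4 at 1.13 ± 0.19 and Glul at 0.87 ± 0.069 (log2, SE). Aqp4 lost the call there without E3 5xFAD (adjusted p = 0.0631). In cortex 2 of 9 were called lower, against 4.63%, namely Aqp4 at -1.11 ± 0.093 and Gja1 at -0.99 ± 0.067. In hippocampus S100b alone was called lower, against 5.35% of all genes, at -0.93 ± 0.083. In hypothalamus Aqp4 at -0.85 ± 0.10 and Slc1a2 at -0.72 ± 0.057 were called lower, against 2.96%. Both hypothalamic calls were lost with library sizes alone (adjusted p = 0.0561 for Aqp4 and 0.126 for Slc1a2) and without E3 aged, and each was also lost without 1 of the 5xFAD sections. None of the 9 was called by glmTreat in thalamus, the Six3-rich area or cerebral nuclei. Of all genes, 10.2%, 3.40% and 4.88% were called there in either direction. With no fold threshold 4, 8 and 8 of the 9 differed there, but the share of all genes at that setting is not given here. Those counts therefore do not set the 9 apart from genes at large.

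**Figure D2:**
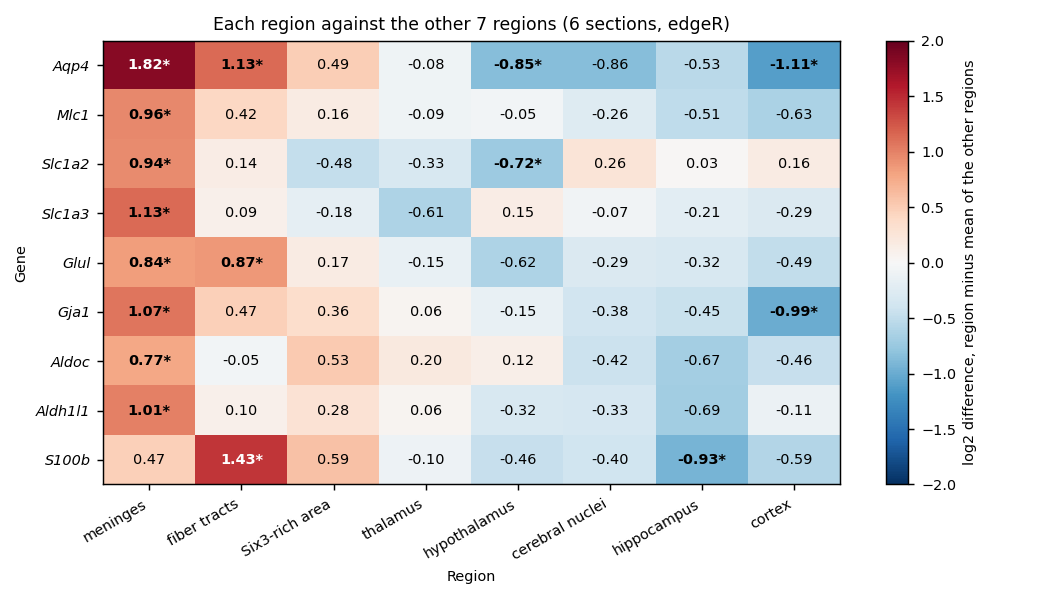
Log2 difference of each gene in each area from the mean of the other areas (rows are genes, columns are areas, colour gives the size), with a star where glmTreat called it. The meninges column is the one with stars for 8 of 9 genes, and the cortex column has stars for Aqp4 and Gja1 only.

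A list of 50 other astrocyte genes was tilted the same way in some areas of the same fit and not in others. In the meninges 23 of the 50 were called higher and 0 lower, with a median log2 difference of 0.82, against 0.96 for the 9 genes and -0.025 for all genes. In cortex 18 of the 50 were called lower and 1 higher, with a median of -0.55, against -0.49 for the 9 genes and 0.020 for all genes. In hippocampus 12 were called lower and 0 higher, at a median of -0.47, against -0.51 for the 9 genes. The medians were also close in the Six3-rich area, at 0.32 against 0.28 for the 9 genes, and in cerebral nuclei, at -0.32 against -0.33. In fiber tracts the median of the 50 was 0.12, against 0.42 for the 9 genes, with 8 called higher and 0 lower. In hypothalamus 5 of the 50 were called higher and 4 lower, while the 9 genes had 0 higher and 2 lower. In thalamus the medians had opposite signs, 0.11 for the 50 and -0.086 for the 9 genes, and 5 of the 50 were called higher and 1 lower.

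Over 112 sums of a cluster in a section, centred within section, all 36 pairs of the 9 genes had a Pearson r above 0, with a median of 0.69. The pair most alike was Mlc1 with Gja1, at 0.89, and the least alike was Aqp4 with Slc1a2, at 0.26. These sums share sections and libraries and carry no test. Outside the list, genes among those most like the mean of the 9 were Gpr37l1 at 0.92, Plpp3 at 0.91, Asrgl1 at 0.91 and Vtn at 0.88. Gpr37l1 is a receptor of astrocytes, while Vtn (vitronectin) is a gene of pericytes. For single genes the closest were Mt1 for Aqp4 (0.88), Pla2g7 for both Mlc1 (0.89) and Gja1 (0.92), Fam107a for Slc1a2 (0.81), S1pr1 for Slc1a3 (0.86), Gpr37l1 for Glul (0.87), Fgfr3 for Aldoc (0.92), Epas1 for Aldh1l1 (0.79) and Tsc22d4 for S100b (0.92).

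Conditions were compared within each of the 8 areas, and over whole sections, with an additive model of genotype and condition fitted to the 6 sums (edgeR's quasi-likelihood test). That leaves 2 residual degrees of freedom, so each call rests on the spread around the additive model and not on mice of the same group. For 5xFAD against young, 4 of 81 gene-by-area tests passed and 18 had an unadjusted p below 0.05, while DESeq2 called 2. The 18 are 22.2% of the 81 tests, beside 9.84% of all tests over all genes in the same 9 fits. For aged against young 1 passed, 18 had an unadjusted p below 0.05 and DESeq2 called 0, where 5.58% of all tests over all genes had such a p. For E4 against E3 none passed, 8 had an unadjusted p below 0.05, DESeq2 called 0 and the lowest adjusted p was 0.513, where 6.28% of all tests had an unadjusted p below 0.05. Over all genes the share called for 5xFAD was 0.886% in whole sections, 1.01% in cortex, 1.25% in hippocampus, 2.02% in thalamus, 0.283% in hypothalamus, 1.46% in cerebral nuclei, 1.34% in fiber tracts, 0.444% in the meninges and 1.41% in the Six3-rich area. For age the shares in the same order were 0%, 0.0201%, 0.378%, 0.156%, 0.138%, 0.240%, 0.178%, 0.780% and 0.0676%, and for E4 against E3 they were 0.0182%, 0.0134%, 0.0832%, 0.0148%, 0.0688%, 0.166%, 0.0669%, 0.0720% and 0.0966%. The members' calls, 1 or 2 of the 9 in an area where there were any, are too few to set the 9 genes apart from genes at large.

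Of cortex, hippocampus and thalamus, only the thalamus held a 5xFAD call, that of Aqp4. It measured 106 CPM in E4 5xFAD and 104 CPM in E3 5xFAD, 57.7 and 61.2 CPM in E4 aged and E3 aged, and 66.9 and 59.9 CPM in E4 young and E3 young. Both 5xFAD sections stood well above the other 4, and the aged sections lay within or just below the young ones. The log2 fold change against young was 0.66 ± 0.12 (SE, adjusted p = 0.0149), where 2.02% of all genes tested in thalamus were called and 1 of the 9. The call held without a thalamic cluster that lay 95.7% in E4 young and without both aged sections, settings chosen after seeing the data, but DESeq2 gave the same size with an adjusted p of 0.0780. It was lost without E4 5xFAD or without E3 5xFAD, with a highest adjusted p of 0.102 and fold changes of 0.52 to 0.79 over the 6 sections left out in turn.

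No other member was called in thalamus. The median log2 fold change of the 9 was -0.0050, from -0.27 for Glul to 0.66 for Aqp4, beside -0.0082 for all genes. Mlc1 in thalamus was 256 CPM in E4 5xFAD but 165 CPM in E3 5xFAD, beside 165 and 176 CPM in E4 aged and E3 aged and 138 and 160 CPM in E4 young and E3 young. The high value was that of E4 5xFAD, and the fold change of 0.40 ± 0.17 did not pass (adjusted p = 0.411). It passed without E3 5xFAD (0.74, adjusted p = 0.0336) and without E3 young (0.60, adjusted p = 0.000478), and was 0.031 without E4 5xFAD. Gfap, the reactive filament gene, measured 373 and 302 CPM in E4 5xFAD and E3 5xFAD, 52.1 and 53.6 CPM in E4 aged and E3 aged, and 22.8 and 18.9 CPM in E4 young and E3 young in the same area, a log2 fold change of 3.94 ± 0.14 for 5xFAD (adjusted p = 1.23e-07). Of 50 other astrocyte genes in thalamus 4 were called higher in 5xFAD and 0 lower: Gfap, Vim (1.63), Clu (0.65) and Mt2 (0.61). Of 13 reactive astrocyte genes tested there 8 were called higher and 0 lower. Summed microglial markers in thalamus were 1072 and 1320 CPM in E4 5xFAD and E3 5xFAD, against 270 to 466 CPM in the other 4 sections, and their part in the Aqp4 level was not tested.

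In cortex none of the 9 genes passed for 5xFAD, where 1.01% of all genes did by edgeR, and DESeq2 called 0. An unadjusted p below 0.05 was found for 2 of the 9, beside 10.4% of all genes. Aqp4 there was 53.9 and 45.7 CPM in E4 5xFAD and E3 5xFAD, 41.0 and 29.0 CPM in E4 aged and E3 aged, and 31.1 and 37.6 CPM in E4 young and E3 young. The 5xFAD sections were the highest pair, but the fold change of 0.43 ± 0.16 did not pass (adjusted p = 0.387), and without E4 aged it did (adjusted p = 0.0289). Glul in cortex was 659 and 827 CPM in E4 5xFAD and E3 5xFAD, 710 and 869 CPM in the aged pair, and 804 and 856 CPM in the young pair, each pair with E4 before E3. Its fold change of -0.26 ± 0.10 did not pass either (adjusted p = 0.418), and E4 lay below E3 in every pair. The E4 aged cortex lay mostly in 1 cluster, with a Glul median over sections of 681 CPM. The other cortical clusters had medians of 861 to 943 CPM, and the part of this in the aged pair was not tested. Slc1a2, the main glutamate transporter, held between 1275 and 1576 CPM in all 6 cortices. In the same cortices Gfap measured 318 and 152 CPM in E4 5xFAD and E3 5xFAD, against 23.0 to 42.5 CPM in the other 4 sections, with a log2 fold change of 3.08 ± 0.23 for 5xFAD (adjusted p = 0.00100).

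In hippocampus none of the 9 passed for 5xFAD, where 1.25% of all genes did by edgeR, and DESeq2 called 0. An unadjusted p below 0.05 was found for 2 of the 9, beside 9.54% of all genes. Mlc1 came nearest, at 184 and 141 CPM in E4 5xFAD and E3 5xFAD, 134 and 122 CPM in E4 aged and E3 aged, and 116 and 113 CPM in E4 young and E3 young. The order 5xFAD, aged, young held for both genotypes, with a fold change of 0.45 ± 0.11 (adjusted p = 0.0853). The 9 fold changes ran from -0.17 to that value, with a median of 0.096 beside -0.0021 for all genes. It passed with library sizes alone (adjusted p = 0.0395) and with no filter on low counts (adjusted p = 0.0146), and in 3 of 6 fits that left out a section. Aqp4 measured 69.5 and 64.2 CPM in E4 5xFAD and E3 5xFAD, against 46.2 to 56.1 CPM in the other 4 sections, and its fold change of 0.28 ± 0.12 did not pass (adjusted p = 0.489). Gfap rose there by 1.84 ± 0.14 and 6 of 14 reactive astrocyte genes tested were called higher.

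**Figure D3:**
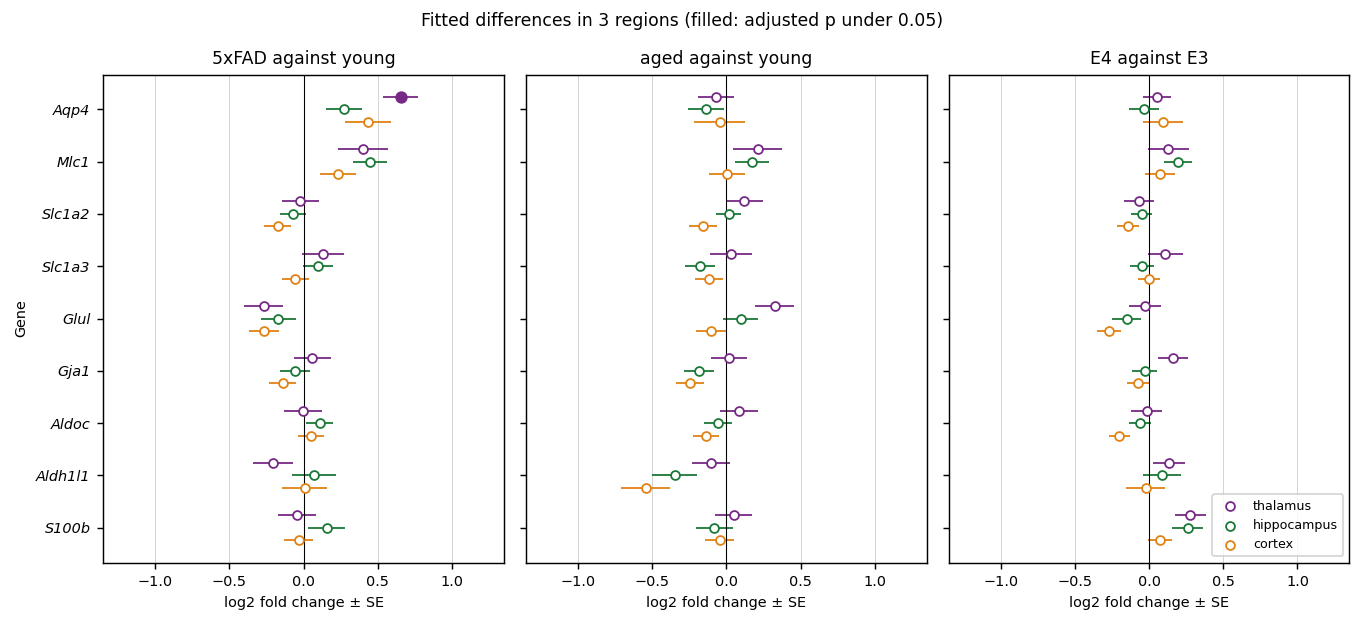
Log2 fold change ± SE of the 9 genes in cortex, hippocampus and thalamus for 5xFAD against young, aged against young and E4 against E3, with filled points where edgeR called the gene. Aqp4 in thalamus for 5xFAD, at 0.66, is the only filled point.

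The other 5xFAD calls fell in areas of fewer or shallower spots. In the Six3-rich area S100b was 227 and 250 CPM in E4 5xFAD and E3 5xFAD, 308 and 368 CPM in E4 aged and E3 aged, and 343 and 413 CPM in E4 young and E3 young. Both 5xFAD sections were below the other 4, and S100b fell by 0.79 ± 0.13 on the log2 scale (adjusted p = 0.00243). Glul in the same area was 787 and 1088 CPM in E4 5xFAD and E3 5xFAD, 1343 and 1406 CPM in E4 aged and E3 aged, and 1175 and 1342 CPM in E4 young and E3 young, and it fell by 0.57 ± 0.12 (adjusted p = 0.0188). These were 2 of the 9 genes, beside 1.41% of all genes. DESeq2 called both, and no other member for 5xFAD in any area. Both are shared with oligodendrocytes, whose 10 markers summed there to 7226 and 8321 CPM in E4 5xFAD and E3 5xFAD, 10053 and 12601 CPM in E4 aged and E3 aged, and 12167 and 17381 CPM in E4 young and E3 young. Median UMIs a spot were 2230 and 2878 in E4 5xFAD and E3 5xFAD, against 9840.5 and 6676 in E4 young and E3 young, and the part of either in the calls was not tested. S100b lost its call only without E4 aged (adjusted p = 0.0771), while Glul lost it without E4 5xFAD, E4 aged, E3 aged or E4 young in turn (highest adjusted p 0.214) and with library sizes alone (adjusted p = 0.0697). Of 47 other astrocyte genes tested in the Six3-rich area, those called included Hepacam (-0.73), lower in 5xFAD, and Gfap (1.43), higher.

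In fiber tracts Mlc1 measured 398 and 329 CPM in E4 5xFAD and E3 5xFAD, 240 and 192 CPM in E4 aged and E3 aged, and 152 and 179 CPM in E4 young and E3 young. It rose by 1.02 ± 0.21 on the log2 scale in 5xFAD (adjusted p = 0.00381), 1 of the 9 beside 1.34% of all genes. These values rest on 28 to 78 Mlc1 UMIs a section. DESeq2 did not call the gene, at the same size, and the call was lost without E4 5xFAD, E3 5xFAD or E4 young in turn (highest adjusted p 0.247). Summed microglial markers there were 1664 and 1514 CPM in E4 5xFAD and E3 5xFAD, 874 and 836 CPM in E4 aged and E3 aged, and 573 and 629 CPM in E4 young and E3 young, and their part was not tested. All 4 reactive astrocyte genes tested in fiber tracts were called higher in 5xFAD.

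With age, 9 of 9 genes had fold changes below 0 in hypothalamus, with a median of -0.091. In fiber tracts 8 of 9 had fold changes above 0, with a median of 0.22. None was called in either area, and 2 and 3 of the 9 had an unadjusted p below 0.05, beside 5.50% and 7.03% of all genes. The only edgeR call for aged against young fell in the meninges. Aqp4 there was 244 and 279 CPM in E4 aged and E3 aged, against 182 and 163 CPM in E4 young and E3 young, with 201 and 218 CPM in E4 5xFAD and E3 5xFAD. It rose with age by 0.77 ± 0.18 on the log2 scale (adjusted p = 0.0449), where 0.780% of all genes were called. The 9 genes had fold changes above 0 in 9 of 9 cases, with a median of 0.49 beside 0.0029 for all genes, and 7 of them had an unadjusted p below 0.05, beside 9.68% of all genes, but Aqp4 alone was called. That call did not hold up well: it was lost with library sizes alone (adjusted p = 0.168), with no filter on low counts (adjusted p = 0.0706) and with DESeq2, and without E4 aged, E3 aged, E4 young or E3 young in turn (highest adjusted p 0.656). Blood markers moved with it, at 3054 and 4357 CPM in E4 aged and E3 aged, against 139 and 22.3 CPM in E4 young and E3 young, as did Gfap (1.43), which was called among the 47 other astrocyte genes tested. Of the 9 genes, 7 (all but Aqp4 and Aldh1l1) had their lowest meningeal level of the 6 sections in E4 young.

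In cortex 8 of 9 genes had fold changes below 0 with age, with a median of -0.11 beside 0.0014 for all genes. Of the 9, edgeR and DESeq2 called 0, beside 0.0201% of all genes called by edgeR. An unadjusted p below 0.05 was found for 2 of the 9, beside 4.41% of all genes. Aldh1l1 was 27.5 and 38.9 CPM in E4 aged and E3 aged, against 50.4 and 47.7 CPM in E4 young and E3 young, with 58.3 and 47.1 CPM in E4 5xFAD and E3 5xFAD. Both aged cortices were the lowest, at a fold change of -0.54 ± 0.16 (adjusted p = 0.950). Without E3 aged, which leaves E4 aged as the only aged section, it became -0.95. The E4 aged section had 204 cortex spots, 151 of them in 1 cluster, against 734 to 954 cortex spots in the others. Aldh1l1 in that cluster had a median over sections of 33.7 CPM, against 45.8 to 61.6 CPM in the other cortical clusters. A fit on that cluster alone, run as an alternative, also called none of the 9 for age, and the size of its fold changes is not given here. The part of the cluster mix in the fold change was not tested further. In hippocampus Aldh1l1 was 24.9 and 27.7 CPM in E4 aged and E3 aged, against 36.3 and 31.7 CPM in E4 young and E3 young, again the lowest pair, with a fold change of -0.35 ± 0.15 (adjusted p = 0.878). In cortex Gja1 had a fold change of -0.25 ± 0.094 (adjusted p = 0.950). In thalamus Glul was 1230 and 1134 CPM in E4 aged and E3 aged, against 889 and 1026 CPM in E4 young and E3 young, a fold change of 0.33 ± 0.13 that did not pass (adjusted p = 0.831), though without E3 young it did (adjusted p = 0.0260). The background there was 0.378% of all genes in hippocampus and 0.156% in thalamus, with 0 of the 9 called in both by edgeR and DESeq2. In each, 1 of the 9 had an unadjusted p below 0.05, beside 5.42% of all genes in hippocampus and 5.68% in thalamus.

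For E4 against E3 none of the 9 was called in any area by edgeR or DESeq2. By edgeR 0.0134% of all genes were called in cortex, 0.0832% in hippocampus and 0.0148% in thalamus. There 2, 1 and 1 of the 9 had an unadjusted p below 0.05, beside 5.38%, 6.13% and 7.11% of all genes. In cortex Glul had a fold change of -0.27 ± 0.083 (adjusted p = 0.889) and Aldoc of -0.20 ± 0.071 (adjusted p = 0.889). Aldoc in cortex was 872 CPM in E4 5xFAD and 901 CPM in E3 5xFAD, 681 CPM in E4 aged and 812 CPM in E3 aged, and 749 CPM in E4 young and 860 CPM in E3 young, with E4 the lower of each pair. Of the 204 E4 aged cortex spots, 151 lay in 1 cluster. Its Aldoc median over sections was 747 CPM, against 750 to 928 CPM in the other cortical clusters. The part of this in the aged pair was not tested. S100b went the other way in thalamus, at 248 CPM in E4 5xFAD and 188 CPM in E3 5xFAD, 215 and 214 CPM in E4 aged and E3 aged, and 240 CPM in E4 young and 185 CPM in E3 young. Its fold change was 0.28 ± 0.10 in thalamus (adjusted p = 0.652) and 0.26 ± 0.10 in hippocampus (adjusted p = 0.742). The aged pair was level in thalamus, so that the difference lay in the 5xFAD and young pairs.

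Single pairs of sections have no test, and their intervals cover counting error only. Among the pairs of E4 over E3, the median furthest from 0 in any of the 8 areas was that of thalamus, where E4 5xFAD over E3 5xFAD had a median log2 ratio of 0.38 over the 9 genes, from -0.050 to 0.63, beside 0.024 for all genes, with 6 of 9 counting intervals above 0 and 0 below. In E4 young over E3 young the thalamic median was -0.082, beside -0.064 for all genes. In cortex the median was 0.085 for E4 5xFAD over E3 5xFAD, -0.094 for E4 aged over E3 aged and -0.11 for E4 young over E3 young, beside 0.080, 0.019 and 0.0095 for all genes. Ranking the 6 sections in each of the 8 areas gave Mlc1 its highest value in E4 5xFAD in 7 areas and its lowest in E4 young in 5. Glul had its lowest value in E4 5xFAD in 7 of the 8 areas. The end foot gene and the glutamine enzyme thus stood at opposite ends in that 1 section.

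Whether a condition acted differently in 2 areas was tested directly, for cortex against hippocampus and cortex against thalamus. In 54 tests edgeR called none, 2 had an unadjusted p below 0.05 and the lowest adjusted p was 0.931, beside, for cortex against hippocampus, 0.00714% of all genes called for 5xFAD, 0.121% for age and 0.00714% for E4, and, for cortex against thalamus, 0.0276%, 0.0344% and 0%. The 5xFAD rise of Aqp4 in thalamus was therefore not shown to differ from its value in cortex. Both tests with an unadjusted p below 0.05 were for age in cortex against thalamus, where 719 of 14518 genes had such a p. DESeq2 was not run on these terms.

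Within the 5xFAD sections, spots with at least 2 UMIs of Cst7, a gene that microglia turn on around plaques, were set against spots with none. In thalamus there were 151 such spots against 175 in E4 5xFAD and 154 against 148 in E3 5xFAD. Aqp4 was 124 CPM in Cst7-bearing spots and 96.9 CPM in Cst7-free spots of E4 5xFAD, a log2 ratio of 0.35 (95% counting interval 0.062 to 0.65). In E3 5xFAD it was 115 CPM against 83.0 CPM, a ratio of 0.47 (0.15 to 0.80). S100b had ratios of 0.25 (0.054 to 0.44) and 0.39 (0.16 to 0.62), and Aldoc of 0.12 (0.036 to 0.20) and 0.23 (0.14 to 0.32), in E4 5xFAD and E3 5xFAD. These 3 genes were higher in the Cst7-bearing spots of both sections, though the spot classes were not matched for thalamic cluster. The Cst7-free spots still held more Aqp4 than the thalamus of any aged or young section.

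Mlc1 was -0.073 (-0.26 to 0.11) in E4 5xFAD and 0.28 (0.037 to 0.53) in E3 5xFAD, Slc1a2 0.053 (-0.037 to 0.14) and -0.12 (-0.21 to -0.030), and Glul 0.046 (-0.058 to 0.15) and -0.066 (-0.17 to 0.039). Slc1a3 was 0.13 (-0.042 to 0.30) in E4 5xFAD but -0.41 (-0.62 to -0.21) in E3 5xFAD, and Gja1 0.18 (-0.016 to 0.38) and -0.26 (-0.49 to -0.030). Aldh1l1 was -0.48 (-0.89 to -0.071) and -0.11 (-0.61 to 0.38). So Slc1a3, Gja1 and Slc1a2 were lower in the Cst7-bearing spots of E3 5xFAD, and the interval of Aldh1l1 there held 0. Gfap was higher in them, at 1.44 (1.24 to 1.65), with 0.20 (0.045 to 0.36) in E4 5xFAD. Cst7-bearing thalamic spots were deeper in E4 5xFAD, with a median of 13544 UMIs against 5751 UMIs, and in E3 5xFAD 12608.5 against 10969.5, and the part of depth was not tested. Thalamic clusters also differed over the 6 sections. A cluster led by Prkcd had medians of 76.0 CPM for Aqp4, 233 CPM for S100b, 1263 CPM for Aldoc and 177 CPM for Slc1a3. Another, led by Gbx2, had 54.9, 189, 1212 and 310 CPM. The part of thalamic cluster in these ratios was not tested.

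In cortex, with 398 against 260 spots in E4 5xFAD and 142 against 584 in E3 5xFAD, the 9 genes differed little between the spot classes. Their ratios lay between -0.16 for Aldh1l1 and 0.25 for Aqp4 in E4 5xFAD and between -0.11 for Aldh1l1 and 0.25 for Aqp4 in E3 5xFAD, and Slc1a2 stood at -0.087 (-0.13 to -0.041) and -0.042 (-0.10 to 0.018). Gfap in the same spots stood at 0.77 (0.66 to 0.87) and 0.79 (0.63 to 0.95). In hippocampus Slc1a2 was 0.14 (0.061 to 0.22) in E4 5xFAD and 0.21 (0.0068 to 0.41) in E3 5xFAD, where only 18 spots bore Cst7. Slc1a3 there was 0.30 (0.15 to 0.46) in E4 5xFAD and Mlc1 0.74 (0.13 to 1.29) in E3 5xFAD, and the intervals of the other 7 genes of each section held 0.

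**Figure D4:**
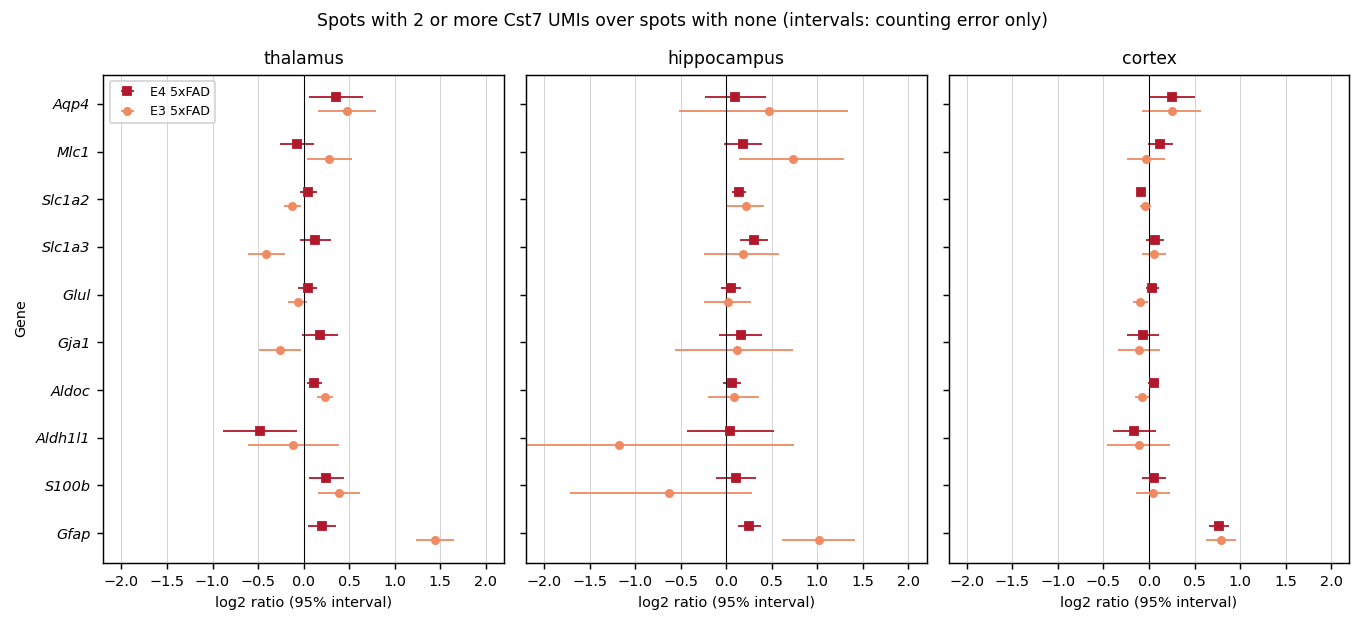
Log2 ratio of the CPM in spots with at least 2 Cst7 UMIs over spots with 0, for the 9 genes and Gfap in thalamus, hippocampus and cortex of E4 5xFAD and E3 5xFAD, with 95% intervals for counting error. Gfap lies above 0 in all 3 areas of both sections, while the 9 genes in cortex lie between -0.16 and 0.25, and the interval of Aldh1l1 in the hippocampus of E3 5xFAD runs past the axis.

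The smaller areas, the habenula with 0 to 44 spots a section and the ventricular system with 14 to 42, were described only. Aqp4 in habenula was high, at 165, 218, 116, 205 and 182 CPM in E4 5xFAD, E3 5xFAD, E4 aged, E3 aged and E3 young, with no habenula spot in E4 young. Slc1a2 in the same spots was low, at 685, 822, 619, 483 and 629 CPM, below its cortical value in every section. These 2 genes were the least alike of the 36 pairs over the cluster sums, to which the habenula sums belong.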

How the data were processed

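Spatial gene expression was measured by Visium in 6 mouse brain sections. The deposited matrices hold raw UMI counts per spot and gene against a joint mouse and human reference (mm10 and GRCh38), and the submitters' processing notes name Space Ranger 1.3.0 and STAR 2.5.1b, whereas the matrix headers name Space Ranger 1.2.2 and, in E3 5xFAD, 2.0.0. Spots within the deposited tissue masks were kept, with the mouse genes and the rows of the human genes that the mice carry. Spots were clustered with python-igraph 0.11.9 (3000 variable genes without astrocyte genes, log values, UMIs and mitochondrial share regressed out, centred within section, 20 components, 20 neighbours, Louvain resolution 0.8), giving 20 clusters, which were named as areas from fixed markers. UMIs were summed per area and section. Sums of areas with at least 20 spots in every section were tested with edgeR 4.0.16 (R 4.3.3; TMM, filterByExpr, quasi-likelihood test or glmTreat, Benjamini-Hochberg over all genes of a fit, threshold 0.05), with DESeq2 1.42.0 as an alternative. The scripts were tested on simulated data. Levels are CPM, with exact Poisson and Clopper-Pearson intervals at 95% that cover counting error only. By the rule for names, all 9 members entered every comparison, with counts, medians or ranges for those not described singly, other astrocyte genes only as counts and by at most 6 of the called ones with the largest change, and likeness by the highest Pearson r among genes at 20 CPM or more. The name of the Six3-rich area, the Gfap, Cst7 and microglial values beside the members, and 2 alternatives for the thalamus were chosen after seeing the data. Some items are not reported here. The members and lists were chosen with earlier results of these data known. Of the spot barcodes, 1387 of 3382 occur in all 6 sections, as Visium slides reuse the same barcode layout. Alternatives covered the test, scaling, filters, depth, clustering, the fold threshold, the main cortical cluster of E4 aged on its own and each section left out.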

Additional observations from a re-analysis of the deposited data

Results flagged for a closer look

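Of 135 pairs of log2 ratios examined in cortex, hippocampus and thalamus, the following pointed in opposite directions with both counting intervals off 0. Each is 1 section over 1 section, and none of these differences was tested.

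In cortex Aqp4 was 0.40 for E4 aged over E4 young but -0.38 for E3 aged over E3 young. By genotype it was 0.24 for E4 5xFAD over E3 5xFAD and 0.50 for E4 aged over E3 aged but -0.28 for E4 young over E3 young. Mlc1 was 0.41 for E4 5xFAD over E3 5xFAD and -0.13 for E4 young over E3 young. The glutamate transporter Slc1a3 was 0.085 for E4 5xFAD over E3 5xFAD and 0.14 for E4 aged over E3 aged, against -0.12 for E4 young over E3 young. Aldh1l1 was 0.31 for E4 5xFAD over E3 5xFAD and -0.50 for E4 aged over E3 aged. S100b was 0.22 for E4 5xFAD over E4 young and -0.097 for E3 5xFAD over E3 young.

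In hippocampus Slc1a2 was -0.11 for E4 5xFAD over E4 young and 0.10 for E3 5xFAD over E3 young. The enzyme Glul was -0.42 and 0.21 in the same 2 ratios. By genotype Glul was -0.54 for E4 5xFAD over E3 5xFAD and 0.080 for E4 young over E3 young.

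In thalamus Mlc1 was 0.63 for E4 5xFAD over E3 5xFAD and -0.20 for E4 young over E3 young. Slc1a3 was 0.56 for E4 5xFAD over E4 young and -0.14 for E3 5xFAD over E3 young, and 0.21 for E4 aged over E4 young and -0.16 for E3 aged over E3 young. By genotype it was 0.44 for E4 5xFAD over E3 5xFAD and -0.26 for E4 young over E3 young. Glul was 0.12 for E4 aged over E3 aged and -0.21 for E4 young over E3 young. Aldoc was 0.098 for E4 5xFAD over E3 5xFAD, against -0.12 for E4 aged over E3 aged and -0.082 for E4 young over E3 young. S100b was -0.16 for E4 aged over E4 young and 0.21 for E3 aged over E3 young.

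Outside the mouse rows, the human SLC1A3 row of the joint reference held 21 UMIs over the 6 sections, above the 3 that a count of 0 allows, against 56024 on the mouse row. The other 8 members had 0 UMIs on their human rows.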

How the results depend on the processing

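No called fold change was reversed in the alternatives run, but some untested medians over pairs of sections changed sign. Counts of called members moved as follows for 5xFAD against young: with DESeq2, 0 in thalamus and 0 in fiber tracts, with library sizes alone, 1 in the Six3-rich area and 1 in hippocampus, and with no filter on low counts, 1 in hippocampus. For aged against young, the meninges gave 0 with DESeq2, library sizes alone or no filter, and without section centring in the clustering 2, as did fiber tracts. Leaving out each section in turn gave 0 to 2 for 5xFAD in the Six3-rich area, hippocampus and thalamus, 0 to 1 in cortex, cerebral nuclei and fiber tracts, and for age 0 to 2 in the meninges and 0 to 1 in cortex and thalamus.

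With no fold threshold, areas gave more calls against the other areas: 6 higher and 2 lower in the Six3-rich area, 1 and 7 in cerebral nuclei, 1 and 7 in cortex, 5 higher in fiber tracts, 8 lower in hippocampus, 1 and 5 in hypothalamus, and 1 and 3 in thalamus. With library sizes alone the lower calls were 1 in cerebral nuclei and 0 in hypothalamus. Leaving out a section gave 0 to 1 lower in cerebral nuclei, 1 to 3 in hippocampus and 0 to 2 in hypothalamus.

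With each spot weighted equally, the median log2 ratio of the 9 genes in the whole section became -0.019 (0.066 with UMIs summed) for E4 5xFAD over E3 5xFAD, -0.16 for E4 young over E3 young, 0.21 for E4 aged over E4 young and 0.020 (-0.059) for E3 aged over E3 young. In cortex it became 0.17 (-0.094) for E4 aged over E3 aged and 0.052 (-0.14) for E4 aged over E4 young. In hippocampus it became -0.33 for E4 5xFAD over E3 5xFAD, -0.17 for E4 aged over E3 aged, -0.21 (0.031) for E4 young over E3 young and 0.11 (-0.15) for E4 aged over E4 young. Without mitochondrial, hemoglobin, Malat1 and Gm42418 counts it was -0.012 (0.060) for E4 5xFAD over E4 young and -0.076 for E3 5xFAD over E3 young in the section, and 0.094 for E4 5xFAD over E4 young in thalamus. The cause of these shifts was not tested.

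Of 139 fold changes by condition in settings other than leaving out a section, 131 kept their side of the threshold, as did 28 of 32 differences between areas. With 1 section left out, 86 of 108 fold changes by condition kept it, 14 lost the call and 8 gained one, and 90 of 96 differences between areas kept it. The depth limits Aldh1l1 and the fiber tracts most, and 1 section a group limits every contrast. No paired analysis of the conditions was possible because each group has 1 section and the labels carry no replicate that pairs them. Areas, in contrast, were compared within the same sections.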
